A study of Mus musculus with 8 samples.

Results

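The 79 genes described here encode subunits of the mitochondrial respiratory chain and of ATP synthase. They were taken by symbol from 55385 annotated mouse genes: the numbered Nduf subunits of complex I, the Sdh subunits of complex II, the Uqcr subunits of complex III, the Cox4 to Cox8 subunits of complex IV, and all 13 protein-coding genes of the mitochondrial genome. The nuclear genome holds 66 of them, 35 in complex I, 4 in complex II, 8 in complex III and 19 in complex IV, and 3 pseudogenes with these names were left out. Among the 66 are Ndufa4, which is named for complex I but belongs to complex IV, and Cox7a2l, which helps to join complexes III and IV into supercomplexes. The mitochondrial genome encodes 7 members of complex I, 1 of complex III, 3 of complex IV and 2 of complex V. Nuclear members were chosen by name and not by their values in these lungs.

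The respiratory chain passes electrons from NADH (complex I) and succinate (complex II) through complex III to complex IV, which reduces oxygen, and the protons pumped on the way drive ATP synthase (complex V). Apart from complex II, which is wholly nuclear, the complexes are assembled from products of both genomes, the mitochondrial genes supplying part of each core and the nuclear genes most of the remaining subunits. Several nuclear subunits of complex IV exist as isoforms with tissue-specific use. Cox6a2, Cox7a1 and Cox8b are the isoforms of heart and skeletal muscle, Cox4i2 is known for its expression in lung, and Cox6b2, Cox7b2 and Cox8c are testis isoforms.

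RNA was from whole lungs of C57BL/6 mouse fetuses at E18.5, 4 control and 4 after tracheal occlusion (TO), a ligature that keeps the secreted lung fluid inside the airways. In TO fetuses the ligature, placed through the uterine wall earlier in gestation, also closed one carotid artery and one jugular vein, so these effects cannot be told apart from that of the trachea. Dams received progesterone before the lungs were collected, and whether the control fetuses had any operation is not given in the sources used here. The lungs are called control 1 to 4 and TO 1 to 4, and each is taken as 1 library from 1 fetus. The study analyzed controls 1, 2 and 4 and TO 2, 3 and 4, and means ± SD and tests below are from these 6 libraries (n = 3 per group) unless all 8 are named. Levels are given as CPM, counts per 1000000 read pairs counted on genes, after TMM scaling of the library totals.

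Between 22822261 and 35002061 read pairs were counted on genes in 7 libraries, and 270078 in TO 1, where 1 read pair was worth 3.70 CPM before scaling. In TO 1, 17 members had fewer than 5 read pairs, and its values are shown but are coarse. All libraries were high in lung markers, with 4441 to 12798 CPM of Sftpc, the surfactant protein C of alveolar type 2 cells. Libraries control 3 and TO 3, which carry the same specimen digits in their names, stood apart from the others in 12 cell cycle genes, which summed to 494 and 503 CPM against 1055 to 1950 CPM elsewhere. Members took 0.370% to 0.505% of the counts on genes for the 66 nuclear genes and 1.03% to 1.84% for the 13 mitochondrial genes in those 7 libraries, and 0.595% and 2.26% in TO 1.

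No member passed the test between TO and control. Of the 79 members, 77 had at least 5 read pairs in 3 or more of the 6 libraries and were tested. With the quasi-likelihood test of edgeR and Benjamini-Hochberg adjustment over all genes, 0 of 77 had an adjusted p under 0.1, and their lowest adjusted p was 0.907. Across all 21859 genes tested 0 were called (0.0%). At an unadjusted p under 0.05 there was 1 member, Cox4i2, where 5.14% of all genes reached that level. DESeq2 and limma-voom also called 0 members, DESeq2 with 44 genes called in all (0.201%) and limma-voom with 0 (0.0%). At an unadjusted p under 0.05, limma-voom gave 3 members, namely Cox6a2, Cox8b and Cox4i2, with 6.23% of all genes at that level. The fitted log2 fold changes of TO over control lay above 0 for 31 members and below 0 for 46, and 49.3% of all genes lay above 0.

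**Figure D1:**
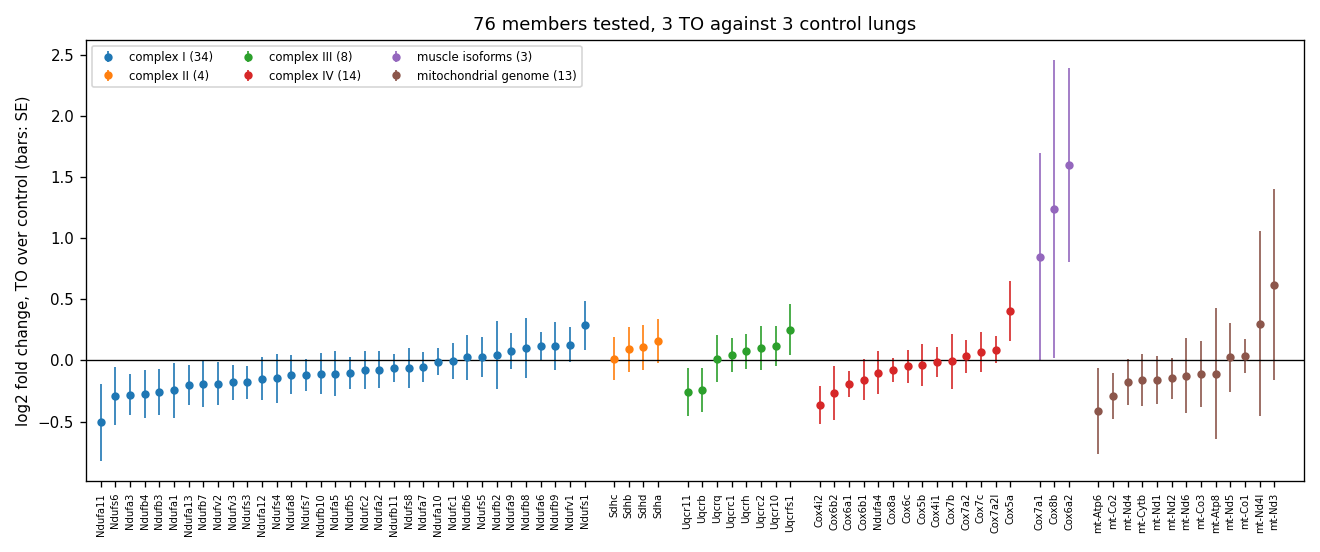
Fitted log2 fold change of TO over control for 76 of the 77 members tested (y axis), ordered within complexes along the x axis, with bars for the standard error of the edgeR fit to 3 control and 3 TO lungs. The nuclear members drawn other than muscle isoforms lie between -0.51 and 0.40, the mitochondrial genes between -0.41 and 0.62, and the 3 muscle isoforms, with the widest bars among nuclear genes, between 0.84 and 1.60.

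The nuclear subunits that are not muscle isoforms had a median close to that of all genes. This median log2 fold change was -0.05 over 61 genes tested, 24 above and 37 below 0, beside -0.0045 for all genes. Their values ranged from -0.51 for Ndufa11 to 0.40 for Cox5a. Summed over these 63 genes, the level was 4028 CPM in control 1, 4272 in control 2, 4227 in control 3 and 4290 in control 4. In the TO lungs the sum was 5452 CPM in TO 1, 3961 in TO 2, 3706 in TO 3 and 4866 in TO 4. TO 2 and TO 3 therefore lay below every control lung and TO 1 and TO 4 above every control lung. The means of the 6 libraries were 4197 ± 146 CPM in control and 4178 ± 609 CPM in TO. In bulk RNA, fewer cells of a type and less RNA per cell cannot be told apart, and this holds for every level given here.

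**Figure D2:**
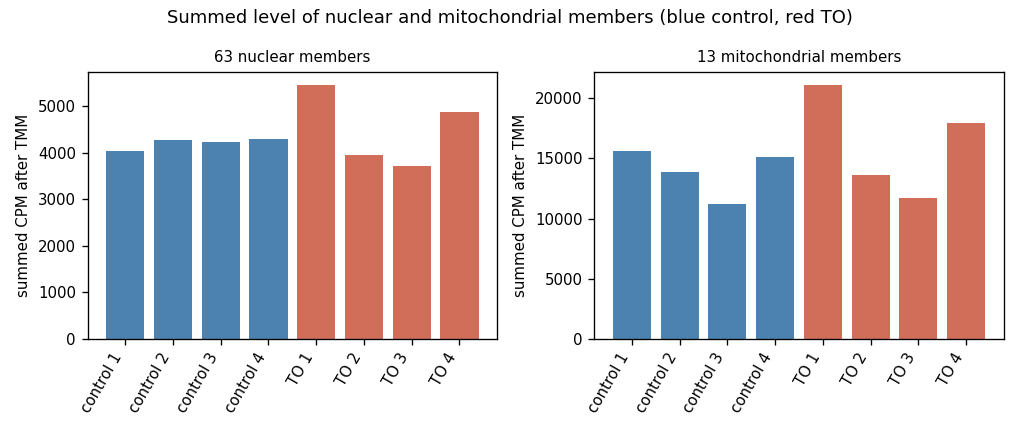
Summed CPM of the 63 nuclear members other than muscle isoforms (left) and of the 13 mitochondrial members (right), one bar for each lung, control in blue and TO in red, both axes starting at 0. TO 1 and TO 4 have the highest bars in both panels, and TO 3 lies below the other TO lungs in both.

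By complex, the 35 nuclear subunits of complex I had a median log2 fold change of -0.11, 10 above and 25 below 0. Ndufs1, the largest core subunit and a carrier of iron-sulfur clusters, had the highest value of this complex. It measured 86.3, 71.2, 101 and 113 CPM in controls 1 to 4 and 148, 94.4, 99.8 and 137 CPM in TO 1 to 4. The groups overlapped, and the log2 fold change was 0.29 (SE 0.20, adjusted p = 0.909 with edgeR). It was 0.11 without TO 4, 0.15 without control 2 and 0.49 without control 4. Ndufa11, an accessory subunit of the membrane arm, had the lowest value of the complex. Its level was 9.99, 13.8, 7.73 and 12.2 CPM in controls 1 to 4 and 6.90, 5.99, 6.40 and 12.9 CPM in TO 1 to 4. TO 1, TO 2 and TO 3 lay below every control lung and TO 4 above 3 of the 4. The log2 fold change of Ndufa11 was -0.51 (SE 0.32, adjusted p = 0.907 with edgeR). It was -0.95 without TO 4, -0.31 without TO 2 and -0.33 without TO 3, and -0.20 and -0.08 from the counts of the first and the second strand. Ndufa1, an accessory subunit, ranged from 5.31 CPM in control 3 to 14.3 CPM in control 4, and in TO 1 the accessory subunit Ndufb2 had no read pair. All 35 genes overlapped between the groups.

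The 4 genes of complex II, succinate dehydrogenase, had log2 fold changes between 0.015 and 0.16 with a median of 0.098. Sdha, the flavoprotein that oxidizes succinate, measured 208, 180, 247 and 236 CPM in controls 1 to 4 and 314, 213, 190 and 294 CPM in TO 1 to 4. The groups overlapped, with a mean of 208 ± 28.0 CPM over the controls and 232 ± 54.4 CPM over the TO lungs and a log2 fold change of 0.16 (SE 0.18, adjusted p = 0.942 with edgeR). Without control 2 it was 0.07, without control 4 0.26 and without TO 3 0.30. Without TO 4 it was -0.04, and all 4 genes of the complex then lay below 0. The iron-sulfur subunit Sdhb ranged from 66.0 to 99.9 CPM in the 7 deeper libraries and was highest in TO 4, and so were the membrane anchors Sdhc and Sdhd at 112 and 89.2 CPM.

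Complex III passes electrons from ubiquinol to cytochrome c. Of its 8 nuclear genes 6 lay above 0 and 2 below, with a median log2 fold change of 0.058. Uqcrfs1, the Rieske iron-sulfur protein, was the highest of them. Its level was 75.0, 69.8, 94.8 and 107 CPM in controls 1 to 4 and 173, 91.0, 83.5 and 126 CPM in TO 1 to 4. The values overlapped, with a log2 fold change of 0.25 (SE 0.21, adjusted p = 0.916 with edgeR), which was 0.06 without TO 4, 0.14 without control 2, 0.38 without TO 3 and 0.47 without control 4. The levels of complex III ran from 18.6 CPM, Uqcr11 in control 3, to 213 CPM, Uqcrc1 in TO 4, in the 7 deeper libraries. Across complexes, 12 nuclear genes were listed as core or catalytic subunits, namely 7 of complex I, Sdha, Sdhb, Uqcrfs1 and the core proteins Uqcrc1 and Uqcrc2. Their median log2 fold change was 0.096, 8 above and 4 below 0. All 12 overlapped between the groups.

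Of complex IV, the 14 genes tested other than muscle isoforms had a median of -0.043, 4 above and 10 below 0. Cox5a, a subunit on the matrix side, measured 14.5, 16.2, 18.0 and 19.3 CPM in controls 1 to 4 and 31.1, 20.2, 15.8 and 29.9 CPM in TO 1 to 4. TO 3 lay within the control range and the other TO lungs above it. Its log2 fold change was 0.40 (SE 0.24, adjusted p = 0.907 with edgeR), 0.12 without TO 4 and 0.60 without TO 3. From the first and the second strand alone it was 0.25 and 0.16. Ndufa4, a subunit of this complex despite its name, ranged from 55.6 to 92.4 CPM, with its lowest levels in control 3 and TO 3. Cox7a2l, the supercomplex factor, went the other way, at 305 and 245 CPM in control 3 and TO 3 and at 124 to 216 CPM in the other lungs.

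Per kilobase of transcript, a scale on which genes can be compared, Cox4i1, Cox6a1 and Cox8a were the highest nuclear members, at 291, 253 and 220 CPM per kb over the 6 libraries. In complex III the highest nuclear genes were Uqcrh and Uqcr10 at 204 and 148 CPM per kb, followed by Uqcrc1 at 107. In complex I the order was led by Ndufa7 at 134 and Ndufa6 at 126 CPM per kb.

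In the 6 libraries, 2 members did not overlap between the groups, Cox6a1 and mt-Co2, both lower in TO. Without overlap were 10.9% of all genes tested, 5.82% with TO lower and 5.1% with TO higher. Cox6a1, the isoform of subunit VIa that most tissues use, measured 155, 161, 139 and 146 CPM in controls 1 to 4 and 190, 138, 122 and 144 CPM in TO 1 to 4. The TO mean of 135 ± 11.3 CPM was set against a control mean of 154 ± 7.25 CPM, a log2 fold change of -0.19 (SE 0.11, adjusted p = 0.907 with edgeR). It was -0.11 without TO 3, -0.12 with the replicate block in 6 libraries and -0.05 with all 8. With control 3 and TO 1 added, neither gene was without overlap, since Cox6a1 was higher in TO 1 than in any other lung.

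Cox4i2 is an isoform of subunit IV that replaces Cox4i1 in part of the complexes of the lung. It had the lowest unadjusted p among members. Its level was 34.3, 47.2, 26.8 and 40.7 CPM in controls 1 to 4, and 35.9, 29.6 and 29.8 CPM in TO 2 to 4. In TO 1 it was 6.90 CPM, from 2 read pairs. Control 3 lay below TO 2 to 4 and control 1 below TO 2, so the groups overlapped. The means were 40.8 ± 6.47 CPM in control and 31.7 ± 3.58 CPM in TO, with a log2 fold change of -0.36 (SE 0.16, adjusted p = 0.907 with edgeR), which was -0.24 without control 2. In the 7 deeper libraries Cox4i2 gave 12.6 to 20.9 read pairs per 100 of Cox4i1, the lowest in control 3 and the highest in control 4. Cox4i1 itself ranged from 194 to 259 CPM over all 8. Lung pericytes express Cox4i2, and of 10 pericyte genes 6 lay above 0 and 4 below with a median of 0.0045, and 3 above 0 with a median of -0.078 in all 8 libraries. These genes summed to 716 to 1135 CPM, highest in control 3 where Cox4i2 was lowest among the deeper libraries.

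The 3 muscle isoforms had the highest log2 fold changes among the nuclear members, and for each of them the lowest and the highest control lung differed by more than the group means did. All lie on chromosome 7 of GRCm38, without being neighbours: Cox7a1 on the plus strand at chr7:30184144-30186078, Cox6a2 on the minus strand at chr7:128205435-128206387 and Cox8b on the minus strand at chr7:140898945-140900446. Cox6a2 measured 3.20, 1.92, 37.3 and 23.1 CPM in controls 1 to 4 and 72.5, 17.7, 25.3 and 42.2 CPM in TO 1 to 4. Controls 1 and 2 were lowest, and controls 3 and 4 lay inside the range of the TO lungs. The TO mean was 28.4 ± 12.5 CPM against 9.40 ± 11.9 CPM for the controls, a log2 fold change of 1.60 (SE 0.79, adjusted p = 0.907 with edgeR).

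Cox7a1 had the same low controls, at 1.27 and 1.49 CPM in controls 1 and 2 against 8.51 and 12.5 CPM in controls 3 and 4. TO 1 to 4 held 17.3, 4.20, 6.53 and 16.6 CPM. The values overlapped, and the log2 fold change of Cox7a1 was 0.84 (SE 0.85, adjusted p = 0.937 with edgeR). Cox8b was at 0.35 and 0.065 CPM in controls 1 and 2, at 6.05 and 8.40 CPM in controls 3 and 4, and at 6.90, 3.39, 4.21 and 13.1 CPM in TO 1 to 4. Again the groups overlapped, with a log2 fold change of 1.24 (SE 1.22, adjusted p = 0.937 with edgeR). Over the 7 deeper libraries the highest level was 22.0 times the lowest for Cox6a2, 13.1 times for Cox7a1 and 202 times for Cox8b.

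**Figure D3:**
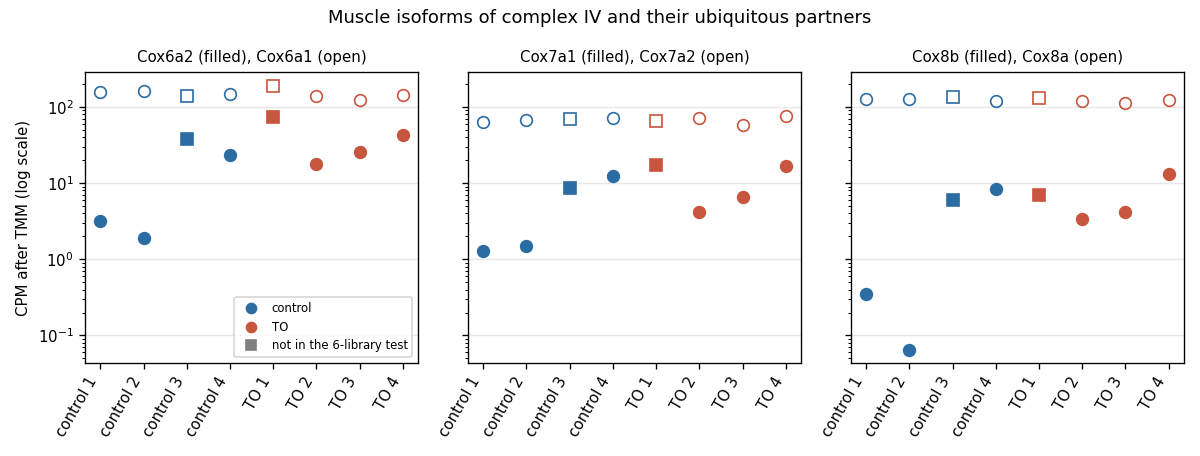
CPM on a log scale of each muscle isoform (filled) and of the isoform used in most tissues (open) in each lung, control in blue and TO in red, with squares for control 3 and TO 1, which were not in the test of 6 libraries. The open symbols lie almost level across the lungs, and among the filled ones controls 1 and 2 are lowest in every panel.

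The isoforms that most tissues use did not share this spread. Cox7a2 ranged from 57.5 to 76.4 CPM and Cox8a from 113 to 133 CPM over all 8 libraries. Read pairs of Cox6a2 per 100 of Cox6a1 numbered 2.07, 1.19, 26.9 and 15.8 in controls 1 to 4 and 38.2, 12.8, 20.7 and 29.3 in TO 1 to 4. For Cox8b per 100 of Cox8a the lowest was 0.0513 in control 2 and the highest 10.8 in TO 4.

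With the replicate number as a block, Cox6a2 was called in the 6 libraries, with a log2 fold change of 1.93 (SE 0.33, adjusted p = 0.00139 with edgeR). The block made 219 calls among all genes (1.0%). In that fit control 1 and TO 3 have no partner, so the difference comes from the pairs numbered 2 and 4 alone. Under the same block Cox8b was at 2.17 and Cox7a1 at 0.91 on the log2 scale, with adjusted p = 0.106 and 0.470 in edgeR. In all 8 libraries with the block, Cox6a2 was at 1.64 (SE 0.59, unadjusted p = 0.0154, adjusted p = 1 with edgeR), when 0.0133% of genes were called. With the specimen digits as a block instead, Cox6a2 was not called in the 6 libraries, at 2.29 (SE 0.65, adjusted p = 0.671 with edgeR). With all 8 it was 1.58 (SE 0.62, adjusted p = 0.930 with edgeR), and in both fits that block called 0 genes in all. TO was higher than the control of the same number in pairs 1, 2 and 4 and lower in pair 3, for each of the 3 isoforms. Cox6a2 was also called without control 4, at 3.49 (SE 0.44, adjusted p = 0.0428 with edgeR), when 0.247% of genes were called and only controls 1 and 2 remained in the control group. Without TO 4 the log2 fold changes were 1.20 for Cox6a2, 0.08 for Cox7a1 and 0.38 for Cox8b.

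Cardiac muscle genes varied across the lungs alongside these isoforms. Mouse lung contains heart-type muscle around its larger veins, and heart tissue can stay attached to a dissected lung. Summed over 15 cardiac genes, the level was 880, 617, 6249 and 4971 CPM in controls 1 to 4 and 9275, 2828, 4266 and 7364 CPM in TO 1 to 4. Ordered by this sum the lungs stood as they did when ordered by Cox6a2, apart from an exchange of control 4 and TO 3. Of the 15 cardiac genes 15 lay above 0, with a median log2 fold change of 1.27, beside 1.24 for the 3 isoforms, and edgeR called 0 of them. None was at 0 in any library. The most abundant were Myh6, the alpha myosin heavy chain, from 167 CPM in control 2 to 1901 CPM in control 3, and Actc1, cardiac actin, from 107 CPM in control 2 to 1898 CPM in TO 1.

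Single cardiac genes did not all have the same order of lungs, and the following were chosen after their values were seen. Myl7, the atrial regulatory light chain, stood at 51.3 and 45.0 CPM in controls 1 and 2 and at 183 to 249 CPM in the other lungs. Myl3, the ventricular light chain, stood at 2.23 and 2.63 CPM in controls 1 and 2, at 4.81 and 8.80 CPM in TO 2 and TO 3, and at 98.2 to 524 CPM in control 3, control 4, TO 1 and TO 4. Relative to control 4, Tnnt2 lay between these 2 genes, at 324 and 469 CPM in TO 2 and TO 3 and 609 CPM in control 4. Cox6a2 was at 17.7 and 25.3 CPM in TO 2 and TO 3. The part of cardiac muscle in the differences of Cox6a2, Cox7a1 and Cox8b was not tested.

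**Figure D4:**
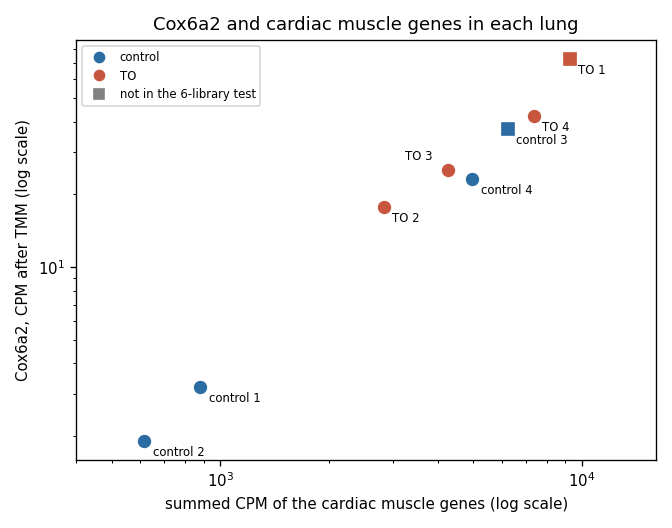
Cox6a2 (y axis, CPM, log scale) against the summed CPM of 15 cardiac muscle genes (x axis, log scale), one point for each of the 8 lungs, control in blue and TO in red. Controls 1 and 2 lie lowest on both axes at 3.20 and 1.92 CPM of Cox6a2, and TO 1 lies highest on both at 72.5 CPM.

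Skeletal muscle uses the same isoforms. Of its list of 15 genes 14 were tested, all above 0 with a median of 1.23, 4 of them at an unadjusted p under 0.05 and 0 called by edgeR. The sum was 174, 38.2, 213 and 175 CPM in controls 1 to 4 and 3212, 278, 216 and 374 CPM in TO 1 to 4. With all 8 libraries its median was 2.40. The list was high in TO 1, with Acta1 at 721 CPM where the other lungs had 2.05 to 55.4 CPM. Unlike the muscle isoforms of complex IV, the skeletal sum did not set controls 3 and 4 apart from control 1, but its genes differed in this. Ckm, the most abundant, did so, at 20.9, 8.71, 130 and 79.1 CPM in controls 1 to 4 and 286, 52.4, 70.2 and 138 CPM in TO 1 to 4. Ordered by Ckm, the lungs stood as they did when ordered by the cardiac sum. Myl1 was also higher in controls 3 and 4 than in control 1. Myh8 went the other way, at 32.9, 1.01, 6.79 and 9.21 CPM in controls 1 to 4. So did Myh3, Myog, Myod1, Tnnt3, Tnni2, Mylpf, Actn3, Neb and Atp2a1, each higher in control 1 than in controls 3 and 4. Brown fat also uses Cox7a1 and Cox8b, and of 8 genes tested from its list 7 lay above 0 with a median of 0.91, and 0.44 with all 8 libraries. Of these genes 1 was at an unadjusted p under 0.05 and 0 were called by edgeR. Its defining marker Ucp1 was at 0 in all 8 libraries, and so was Otop1. Plin5 was higher in TO without overlap in the 6 libraries, with a log2 fold change of 1.10, but overlapped with all 8. Elovl3, which was not tested, was at 0 in controls 1 to 4, TO 1 and TO 3. It was at 0.23 CPM in TO 2 and 3.04 CPM in TO 4. The most abundant genes on that list, Prdm16 and Ppargc1a, are expressed in other tissues as well. The part of skeletal muscle or of brown fat in the values of the muscle isoforms was not tested.

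Of the testis isoforms, Cox6b2 was present at 7.20 to 22.6 CPM, lowest in control 3 and highest in control 2. Its log2 fold change was -0.26 (SE 0.22, adjusted p = 0.916 with edgeR), with means of 17.2 ± 4.62 CPM in control and 14.4 ± 1.98 CPM in TO. Without control 2 it was -0.02, without TO 2 -0.15, and with all 8 libraries -0.04. Cox7b2 had 1 read pair, in TO 3, and Cox8c had 0 in every library. Neither was tested. Of 8 germ cell genes 3 were at 0 in all libraries, and all 8 summed to at most 2.35 CPM.

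The mitochondrially encoded genes are transcribed as long precursors from both strands of one small circular genome, so their levels are not independent. They fell into a high and a low class, and the deposited counts cannot be read as transcript levels for all of them. Above 100 CPM in every library were mt-Co1, mt-Cytb, mt-Nd1, mt-Nd2, mt-Nd4, mt-Nd5 and mt-Nd6. The other 6, mt-Co2, mt-Co3, mt-Atp6, mt-Atp8, mt-Nd3 and mt-Nd4l, stayed below 28 CPM. Per kilobase over the 6 libraries, mt-Co1 stood at 4911 CPM per kb, mt-Cytb at 1915, mt-Nd1 at 1566 and mt-Co2 at 18.4.

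Nuclear pseudogenes copy part of the mitochondrial genome, and a read pair that aligns equally well to both places was not counted. Of all 150-base windows, the length of a read, the share found letter for letter in another annotated transcript was 99.8% for mt-Co3, 99.4% for mt-Co2 and mt-Atp6, 98.0% for mt-Nd4l and 97.0% for mt-Nd3. It was 59.2% for mt-Nd4, 23.6% for mt-Co1, and 0 for mt-Cytb, mt-Nd1, mt-Nd2, mt-Nd5, mt-Nd6 and mt-Atp8. The search covered annotated transcripts alone, so a copy outside them would not be seen. The matching transcripts of mt-Co3, mt-Atp6, mt-Nd3, mt-Nd4l, mt-Nd4 and mt-Co1 are unprocessed pseudogenes that adjoin each other on chromosome 1, chr1:24611535-24616197 from first to last in GRCm38. One window is printed to show how complete the copy is. It lies in mt-Co3 at chrM:8907-9056 on the plus strand and again, without a difference, in the pseudogene Gm28437 at chr1:24613522-24613671 on the minus strand, and has no capitals because no base differs.
mt-Co3 and Gm28437: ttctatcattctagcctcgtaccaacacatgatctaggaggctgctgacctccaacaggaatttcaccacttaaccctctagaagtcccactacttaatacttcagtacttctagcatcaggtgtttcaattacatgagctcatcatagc

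The level of mt-Co3 was 11.7, 13.9, 10.1 and 11.4 CPM in controls 1 to 4 and 27.6, 12.8, 7.10 and 14.2 CPM in TO 1 to 4, and the 27.6 CPM of TO 1 are 8 read pairs. Among nuclear members the largest shares were 20.5% to 29.3%, in Ndufb4, Cox7c, Ndufb6, Ndufa13 and Uqcrc2, and the 3 muscle isoforms had none. Values of the 5 genes with over 90% shared windows describe only what was left after that filter. They give no order of transcript levels. Of mt-Atp8, which is 204 bases long and overlaps mt-Atp6, 0 to 1.30 CPM were counted. It lies between mt-Co2 and mt-Atp6, which match Gm28661 and Gm10925 on chromosome 1. The stretch of chromosome 1 between those pseudogenes was not searched, so the share of 0 for mt-Atp8 does not show that its read pairs were all counted.

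**Figure D5:**
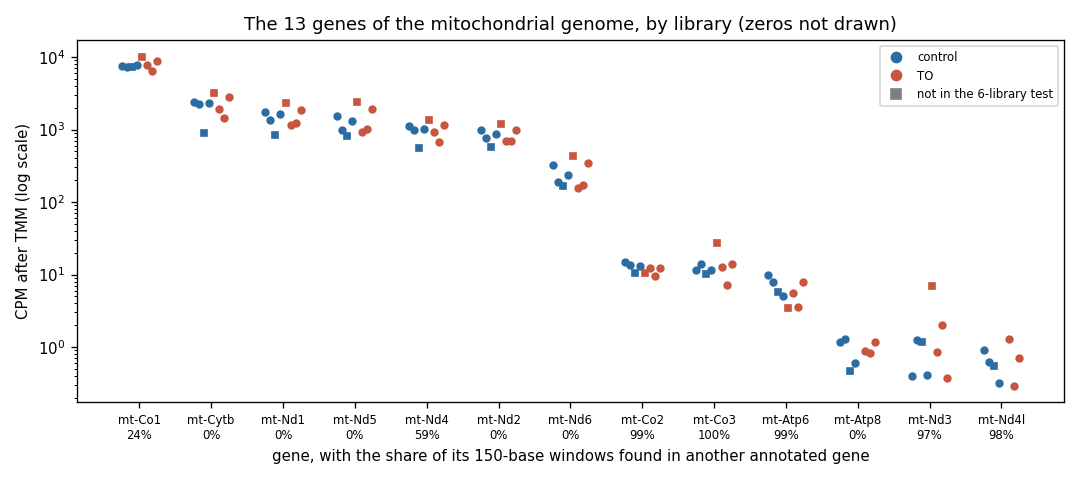
CPM on a log scale of the 13 mitochondrial genes in each of the 8 lungs, control in blue and TO in red, with squares for control 3 and TO 1, and under each name the share of its 150-base windows found in another annotated gene. The 7 genes on the left lie above 100 CPM and the 6 on the right below 28 CPM, and in all 7 of the former TO 1 has the highest point.

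In the test of 6 libraries, 4 of the 13 lay above 0 and 9 below, with a median of -0.13. The 7 abundant genes had a median of -0.15, with 2 above 0 and 5 below. The sum of all 13 was 15647, 13861, 11184 and 15121 CPM in controls 1 to 4 and 21099, 13611, 11724 and 17967 CPM in TO 1 to 4. As with the nuclear genes, TO 2 and TO 3 were lower than controls 1, 2 and 4 and TO 1 and TO 4 were higher than every control. The means were 14877 ± 918 CPM in control and 14434 ± 3202 CPM in TO. Per library, the 13 mitochondrial genes held 2.61 read pairs for each read pair of the 66 nuclear genes in control 3 and 3.13 to 3.88 in the other lungs.

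mt-Co1, the catalytic subunit of complex IV, was the most even of the abundant genes. It measured 7515, 7309, 7300 and 7671 CPM in controls 1 to 4 and 10154, 7750, 6473 and 8807 CPM in TO 1 to 4. The 4 control lungs lay inside the range of the TO lungs. The log2 fold change was 0.03 (SE 0.14, adjusted p = 0.984 with edgeR). mt-Cytb, the only mitochondrial subunit of complex III, measured 2393, 2223, 899 and 2322 CPM in controls 1 to 4 and 3192, 1936, 1455 and 2812 CPM in TO 1 to 4. Control 3 stood far below the other control lungs. The log2 fold change of mt-Cytb was -0.16 (SE 0.22, adjusted p = 0.957 with edgeR) with means of 2313 ± 85.4 CPM in control and 2067 ± 688 CPM in TO, and it was 0.26 with all 8 libraries, -0.45 without TO 4 and 0.05 without TO 3.

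Relative to mt-Co1, mt-Cytb stood at 0.123 in control 3, 0.225 in TO 3, 0.250 in TO 2 and 0.303 to 0.319 in the other 5 lungs. Both lungs with the lowest ratio carry the same specimen digits. mt-Nd1 relative to mt-Co1 was lowest in control 3 at 0.116, then 0.150 in TO 2, and highest at 0.231 in TO 1. Of the 5 genes of complex I above 100 CPM, mt-Nd5 ranged from 817 CPM in control 3 to 2381 CPM in TO 1 and mt-Nd6, the only one of the 13 on the opposite strand, from 158 CPM in TO 2 to 438 CPM in TO 1.

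Of the sparsely counted mitochondrial genes, mt-Co2 was the member without overlap, at 15.0, 13.6, 10.5 and 12.9 CPM in controls 1 to 4 and 10.4, 12.3, 9.42 and 12.2 CPM in TO 1 to 4. Its mean was 11.3 ± 1.63 CPM over the TO lungs and 13.9 ± 1.05 CPM over the controls. The fitted log2 fold change came to -0.29 (SE 0.19, adjusted p = 0.907 with edgeR), and control 3 lay among the TO lungs. It was -0.17 without TO 3 and -0.12 with the replicate block in 6 libraries. mt-Nd3, at 0.37 to 1.98 CPM in the 7 deeper libraries, had a log2 fold change of 0.62 (SE 0.78, adjusted p = 0.955 with edgeR), 0.36 without either control 1 or control 4, 1.40 without control 2, 1.03 without TO 4 and -0.16 without TO 3. mt-Atp6, at 3.55 to 9.73 CPM in those libraries, had one of -0.41 (SE 0.35, adjusted p = 0.922 with edgeR), -0.16 without TO 3, -0.20 without control 1, -0.63 without control 4 and -0.74 without TO 4. mt-Nd4l, at 0.29 to 1.27 CPM, had one of 0.30 (SE 0.76, adjusted p = 0.979 with edgeR). The SE was wider than the difference for mt-Nd3 and mt-Nd4l and close to it for mt-Atp6.

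The extremes of most nuclear members fell in the same few lungs. Among the 61 nuclear genes tested that are not muscle isoforms, the highest of the 7 deeper libraries was TO 4 for 34 and control 2 for 15. The lowest was TO 3 for 28 and control 3 for 14, so that 42 of 61 were lowest in 1 of these lungs. They share specimen digits, as the other deeper lungs also do among themselves. These counts were not made over all genes tested. The highest level was a median of 1.54 times the lowest. It ran from 1.18 times for Cox8a to 3.13 times for Cox6b2, and 50 of the 61 genes stayed under 2 times. For the 7 abundant mitochondrial genes the median was 2.20 times, with TO 4 highest for 6 and control 3 lowest for 5.

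The direction of both groups changed with the libraries compared and with the block. Without TO 4, 9 of 64 nuclear members lay above 0 with a median of -0.15, and 2 of 13 mitochondrial members with a median of -0.35. At an unadjusted p under 0.05 were then 16 members, all lower in TO, 11 nuclear and 5 mitochondrial, with 10.7% of all genes at that level. Among them were Ndufs3, Ndufs4, Ndufv2, Cox7b, mt-Nd1 and mt-Cytb. edgeR called 0 members in that fit and 144 genes in all (0.692%). With all 8 libraries the medians were 0.023 for 64 nuclear members, 37 of them above 0, and 0.16 for the mitochondrial members, 11 of 13 above 0, where 46.8% of all genes lay above 0. edgeR called 0 members and 0 genes (0.0%) in all 8 libraries, with 0 members at an unadjusted p under 0.05.

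Lists related to the pathway had medians near 0 in the 6 libraries. Of the nuclear subunits of complex V, which the choice by name leaves out, 17 of 18 were tested, 9 above and 8 below 0 with a median of 0.012, and Atp5o is listed at 0 in every library. Atp5b and Atp5a1, the catalytic beta and alpha subunits, ran from 752 to 1656 CPM and from 533 to 1094 CPM. Both were lowest in control 2 and highest in TO 1. Of 47 assembly factors 19 lay above 0 and 28 below, with a median of -0.038. With all 8 libraries 34 of the 47 lay above 0 with a median of 0.060, and 12 of the 17 complex V genes with a median of 0.15. Of 7 electron carriers and further subunits 4 lay above 0, with a median of 0.063, and 0.21 with all 8 libraries. Of 19 regulators of mitochondrial transcription and biogenesis 5 lay above 0 and 14 below, with a median of -0.065 (-0.029 with all 8 libraries). The most abundant were Polg, from 100 to 148 CPM over all 8 lungs, and Gabpa, a subunit of the ETS factor NRF2, from 100.3 to 110 CPM. Not all regulators were as even. Ppargc1a stood at 20.7, 19.5, 45.2 and 40.7 CPM in controls 1 to 4 and 62.1, 21.9, 29.9 and 51.3 CPM in TO 1 to 4. edgeR called 0 genes on each of these lists, as did DESeq2, and none of their genes had an unadjusted p under 0.05.

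In lists outside mitochondria edgeR also called 0 genes. The 12 cell cycle genes all lay below 0, with a median of -0.72 and 1 at an unadjusted p under 0.05. The 12 interferon-stimulated genes all lay above 0, with a median of 1.72 and 7 at that level, of which DESeq2 called Ifit3. With all 8 libraries 3 of the 12 cell cycle genes lay above 0 with a median of -0.29, and the interferon median was 0.79. The interferon genes' summed level was 718 CPM in TO 3 and 400 CPM in control 3 against 152 to 254 CPM in the other lungs. TO 3 and control 3, the lungs where most nuclear members were lowest, thus had the lowest cell cycle and the highest interferon sums, and the part of either in the members' levels was not tested. Of 16 lung epithelial and mesenchymal genes 6 lay above 0 and 10 below with a median of -0.045, and -0.14 with all 8 libraries. Of 10 erythroid genes 4 lay above 0 and 6 below with a median of -0.072, and with all 8 libraries 0 lay above 0 with a median of -0.34.

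Promoters of the nuclear members were searched for short motifs. A RefSeq table of GRCm38.p6, with 250 bases before and 50 after each start, held 53 of the 66, and each motif was searched on both strands. TGCGCA, the core of the site of NRF1, the nuclear respiratory factor, was found in 15 of 53 promoters (28.3%) and in 8.06% of all 27025. The overlapping form GCGCATGC was in 7 (13.2%, against 2.80%). CCGGAAG, the ETS site that GABP binds, was in 11 (20.8%, against 9.12%), and AAGATGG, the YY1 site, in 8 (15.1%, against 6.48%). The E-box CANNTG, bound by muscle factors among many others, was in 67.9% against 72.1%. These counts describe letters and not binding. Cox7a1 and Cox8b, the muscle isoforms in the table, had the E-box and none of the other motifs. In the 200 bases before the start, Cox7a2 and Cox8a, their partners used in most tissues, also had the E-box alone. Cox6a2, the muscle partner of Cox6a1, was not in the table. Cox6a1 is shown as a promoter with both NRF1 forms and the ETS site, beside the pair of muscle isoforms, each as the 200 bases before the start with the motifs found there in capitals. In GRCm38.p6 they lie at chr5:115348959-115349158 on the minus strand for Cox6a1, chr7:30183971-30184170 on the plus strand for Cox7a1 and chr7:140900447-140900646 on the minus strand for Cox8b.
Cox6a1: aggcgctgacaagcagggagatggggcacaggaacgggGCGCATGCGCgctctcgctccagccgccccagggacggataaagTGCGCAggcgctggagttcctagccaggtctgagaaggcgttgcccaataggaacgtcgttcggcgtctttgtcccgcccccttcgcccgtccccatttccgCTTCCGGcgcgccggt
Cox7a1: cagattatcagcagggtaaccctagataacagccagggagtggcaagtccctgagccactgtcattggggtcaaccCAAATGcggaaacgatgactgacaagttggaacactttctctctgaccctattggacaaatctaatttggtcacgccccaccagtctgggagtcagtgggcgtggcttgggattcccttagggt
Cox8b: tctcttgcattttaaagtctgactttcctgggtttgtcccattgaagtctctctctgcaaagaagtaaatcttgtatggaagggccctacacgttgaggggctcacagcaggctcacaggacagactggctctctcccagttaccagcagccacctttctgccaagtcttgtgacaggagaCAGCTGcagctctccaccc
Over the 8 lungs Cox6a1 ran from 122 to 190 CPM, Cox7a1 from 1.27 to 17.3 CPM and Cox8b from 0.065 to 13.1 CPM.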

How the data were processed

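The authors made NexteraXT libraries from whole-lung RNA, sequenced 150-bp read pairs and aligned them to GRCm38 with STAR, whose version and annotation are not given in the sources used here. The deposited values are raw counts per gene, from which the count made without regard to strand was used. Antisense read pairs therefore cannot be told from sense ones. Pairs on genes that overlap on either strand were not counted for any gene. Pairs that were unmapped, mapped to several places, or fell on no gene or more than 1 stayed out of library sizes. IDs were matched to GENCODE M21 (55144 of 55385 without version). Members and lists were chosen with earlier results of these data known. Genes named were those called, the 10 largest changes, members without overlap, isoforms with partners, mitochondrial, core and catalytic genes, and the 3 highest per length in complexes I, III and IV. The 2 most abundant genes were named only for the complex V, regulator, cardiac, skeletal and brown fat lists. Others named are Sftpc, Ucp1, Sdhc, Sdhd, Ndufa1, Ndufa4, Cox7a2l, Ndufb2, Uqcr11, Ndufb4, Cox7c, Ndufb6, Ndufa13, Ndufs4, Cox7b, Atp5o, Ifit3, Myh8, Myl3 and Myl7, given after their values were seen. Named in the same way were Tnnt2, Myl1, Myh3, Myog, Myod1, Tnnt3, Tnni2, Mylpf, Actn3, Neb, Atp2a1, Plin5, Elovl3 and Otop1. The counts also hold 1 gene that is not shown singly here.

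Genes with at least 5 read pairs in 3 or more libraries were tested with edgeR 4.0.16 (quasi-likelihood test, TMM, Benjamini-Hochberg adjustment over all genes, threshold 0.1) in R 4.3.3, and DESeq2 1.42.0 and limma 3.58.1 were alternatives. CPM used TMM factors of all 8 libraries. Scripts were tested on simulated data. Replicates are separate samples by their labels, with nothing on litters, and p-values measure only the spread between these samples. Replicate libraries differed by far more than sampling noise. Same-numbered control and TO libraries deviated together from their group means (r of 0.21, 0.34, 0.49 and 0.34 for pairs 1 to 4, over 9335 genes), and each pair also shares digits in its specimen names (pairs 1 and 4 the same digits), so a fit with the replicate number as a block was made. Control 4 and TO 1, which share digits but not the number, had r of 0.33, above that of pair 1. Control 1 and TO 4, with those digits too, had 0.15, and the other differently numbered libraries -0.44 to 0.0039. Among the 6 libraries of the test, control 1 and TO 4 had 0.15 and pair 4 had 0.12. For pairs 1 and 4 these values therefore do not tell the number from the digits. Counts carry no molecular identifiers, so depth limits only the counting error of each value. Figures were drawn in Python 3.11.15 with matplotlib 3.10.9. Alternatives were other scaling, filters, strand columns, library sets, left-out libraries and blocks.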

Additional observations from a re-analysis of the deposited data

Results flagged for a closer look

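Of 85 groups of 4 libraries examined, 4 held a library far from the others by Dixon's criterion, and chance gives about 1 in 20. These groups did not cover all 79 members in both control and TO. mt-Cytb in control 3 was at 899 CPM, with the other controls at 2223 to 2393 CPM, a gap of 0.886 of the range. Ndufa11 in TO 4 was at 12.9 CPM, with the other TO lungs at 5.99 to 6.90 CPM (0.868 of the range). Ndufa7 in TO 1 was at 96.6 CPM, from a library of 270078 read pairs, with the other TO lungs at 67.0 to 71.3 CPM (0.854). Cox7b2 had 1 read pair, in TO 3, so its gap is 1 of the range and rests on that read pair.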

How the results depend on the processing

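The directions of the group medians rest on few libraries. The median log2 fold change of nuclear members, -0.04, became 0.023 with all 8 libraries, 0.017 with the replicate block in 6 and 0.042 in 8, 0.053 and 0.041 with the specimen digits as a block in 6 and 8, and 0.036 with DESeq2 in 8. Leaving out 1 library at a time gave -0.15 to 0.045. The mitochondrial median, -0.13, became 0.16 with all 8 libraries, 0.020 with all but TO 1, 0.064, 0.20 and 0.12 with the replicate block in 6, 8 and 7 (the last and DESeq2 in 8 were added after seeing the data), 0.040 and 0.15 with the specimen block in 6 and 8, and 0.18 with DESeq2 in 8, and ran from -0.35 without TO 4 to 0.020 without TO 3. The muscle isoform median ran from 0.38 without TO 4 to 3.49 without control 4 and stayed above 0 in every setting tried. In the same order as for the mitochondrial median, mt-Cytb became 0.26, 0.077, 0.041, 0.30, 0.26, 0.070, 0.30 and 0.29, and -0.45 to 0.052 with 1 library left out. mt-Nd3 became -0.091 from the second strand column, -0.35 with the replicate block and -0.31 with the specimen block in 6, and -0.16 to 1.40 with 1 library left out. mt-Atp6 became 0.052 with the replicate block in 6. Cox6b2 became 0.063 and 0.073 with the replicate block in 8 and 7 and 0.079 with the specimen block in 8. With 1 library left out, Sdha ran from -0.042 to 0.30, mt-Co1 from -0.074 to 0.16 and mt-Nd4l from -0.28 to 0.69.

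The number of members called was 1 with the replicate block in 6 libraries (Cox6a2) and 0 to 1 with 1 library left out, and the block changed no other call among members. All genes called numbered 44 with DESeq2 (7 in 8 libraries), 40 with no filter beyond 1 read, 219, 3 and 5 with the replicate block in 6, 8 and 7, and 0 to 144 with 1 library left out. Of 42 named members tested, 13 changed sign with all 8 libraries, 12 with the replicate block in 6 and 11 without TO 4, and 0 with library size alone or without mitochondrial genes in the totals. The cause of these changes was not tested. In TO 1, levels under 17.3 CPM rest on fewer than 5 read pairs.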
